A study of Rattus norvegicus with 12 samples.

Results

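The comparison described here sets PC12 cells induced to express a huntingtin fragment against the same cells without induction, with the vehicle DMSO on both sides. It rests on 6 of the 12 arrays of the study, 3 titled as induced with DMSO and 3 titled as non-induced with DMSO, and on 34422 of 68842 array features. PC12 is a rat line from a pheochromocytoma, a tumour of adrenal chromaffin cells. All groups carried an inducible GFP-tagged exon-1 fragment of huntingtin with 74 glutamines. Non-induced cells received no inducer, and induced cells received doxycycline at 1 µg/ml. The time given was 48 h for every group, both DMSO groups included. The remaining 6 arrays came from induced cells given the guanabenz analogues compound 3 or compound 6 at 10 µM for 48 h, and they enter here through the filter on mean level and the shared estimate of spread, with their own levels given for a few genes and no test between compounds. Doxycycline was present in every induced culture and in no non-induced one, so the fragment and its inducer cannot be told apart, and the labels name a single cell line and no promoter. The labels do not say whether the numbered replicates were grown apart. The p-values therefore reflect only how much these arrays varied, and that variation may be technical.

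Expansion of the glutamine tract in huntingtin causes Huntington disease, and exon-1 fragments with a long tract form aggregates in cells. Chromaffin cells make catecholamines, pack them with granins into dense-core granules and release them when nicotinic receptors and calcium channels open. Growth factors such as nerve growth factor drive PC12 cells toward a neuron-like form through receptor tyrosine kinases and the MAP kinase cascade. Calcium and cyclic AMP act on the factor CREB, which binds the cAMP response element in promoters.

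Levels are log2 values, on which a difference of 1 is a change of 2.0-fold, and all differences are induced minus non-induced with ± for the standard error. A feature was called higher or lower at a Benjamini-Hochberg adjusted p under 0.05 from limma over the 34422 features, and every adjusted p below is from that fit. Values are listed in the order of array 1, 2 and 3 of a group. Array medians lay between 4.61 and 4.70. The brightest features differed among the induced arrays, however. Among the 10% of features with the highest mean level, the median feature on induced array 1 lay 0.12 above the non-induced mean, whereas induced arrays 2 and 3 lay at -0.15 and -0.34. Of these bright features 14.3% were called lower and 1.05% higher, while 12.1% were lower and 4.39% higher after quantile normalisation. Their median difference was -0.12 as deposited and 0.03 after quantile normalisation. Of the 169 called genes that the naming rule chose, whether or not they are described below, 12 lost their call after quantile normalisation.

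**Figure D1:**
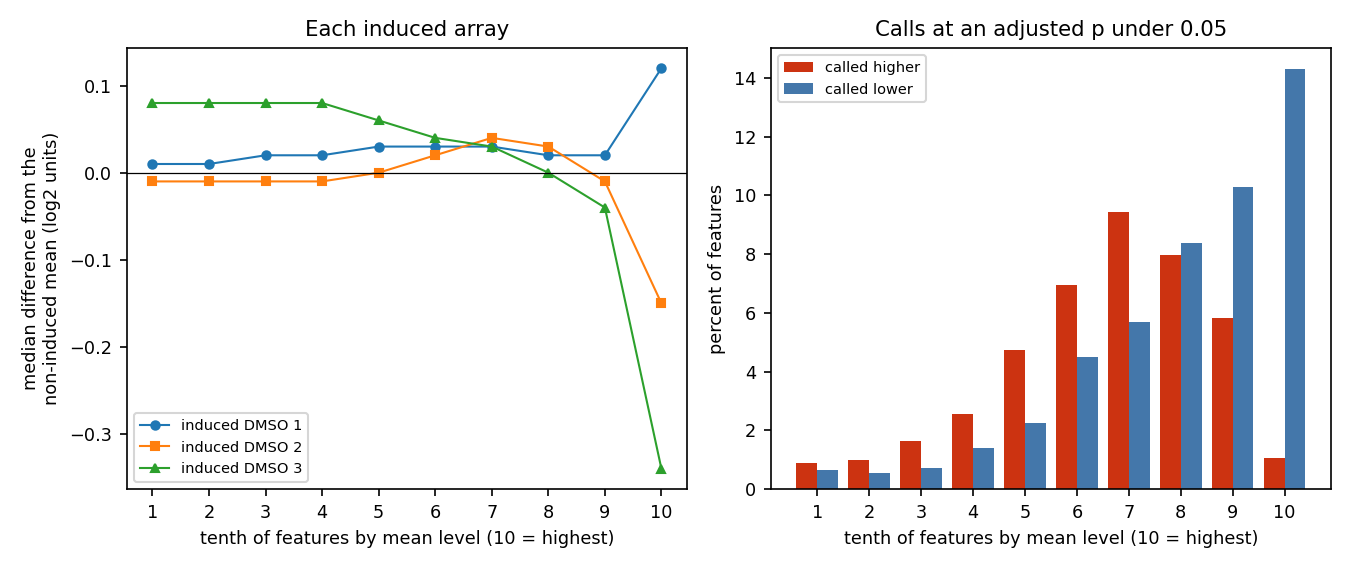
Features were divided into 10 groups of nearly equal size by mean level over 12 arrays (horizontal axis, 10 the highest). The left panel plots the median difference of each induced DMSO array from the non-induced mean in log2 units, with array 1 at 0.12 and array 3 at -0.34 in the highest group, and the right panel plots the percent of features called higher or lower in each group.

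In all 3120 features were called, 9.06% of those tested, 1447 higher (4.2%) and 1673 lower (4.86%). At an unadjusted p under 0.05 the number was 7245. Non-induced and induced arrays occupied separate ranges in 3113 of the 3120 called features, as they did in 22.7% of all features tested. With 1 feature per gene, 15313 named genes were measured, of which 7.17% were called higher and 4.9% lower, 12.1% in either direction, with a median difference of 0.03. These shares are the background for every gene list below. The largest differences were falls: 62 features fell by at least 2.0-fold and 2 rose as much, 23 and 2 among features with 1 gene symbol. At 1.5-fold or more the numbers were 523 falls and 47 rises. Leaving out induced array 1 raised the total to 5165, and leaving out non-induced array 2, non-induced array 3 or induced array 2 lowered it to 2064, 1821 or 1815. When the arrays were brought to 1 common median, 30.9% of the calls were higher, against 46.4% as deposited.

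Cell-surface receptors and secretion genes led the falls. P2ry12, a receptor for ADP, measured 8.60, 8.65 and 8.51 without induction and 6.63, 6.65 and 6.55 with it, a 3.94-fold fall (95% interval -2.30 to -1.65, adjusted p = 9.03e-05). Agtr2, an angiotensin receptor, went from 5.60, 6.07 and 6.28 to 4.60, 4.59 and 4.72, a fall of 1.35 ± 0.17 (adjusted p = 0.0008). Its means in the 3 induced groups were 4.64, 4.33 and 4.60, so it passed the filter at 4.631 through the non-induced group. Fzd5, a receptor for Wnt ligands, stood at 11.02, 11.14 and 11.24 without induction and at 9.93, 9.78 and 10.20 with it (-1.16 ± 0.12, adjusted p = 0.000385). These 3 receptors, like all of the 15 largest falls, were chosen among called features whose groups do not overlap. Gpr139, an orphan G-protein-coupled receptor, fell by 1.21 ± 0.29 (adjusted p = 0.0235), and its call was lost without non-induced array 1, non-induced array 3 or induced array 2. Sytl4, the granule protein granuphilin, read 7.45, 7.53 and 7.72 and then 6.31, 6.21 and 6.47 (-1.24 ± 0.09, adjusted p = 9.03e-05). Doc2b, a calcium sensor of vesicle fusion, had 10.61, 10.58 and 10.67 before and 9.58, 9.33 and 9.56 after induction (-1.13 ± 0.14, adjusted p = 0.000734). The peptide hormone gene Adm, coding for adrenomedullin, dropped from 11.25, 11.11 and 11.35 to 9.83, 9.71 and 10.10. Itga1, the collagen-binding integrin subunit, was tight within groups, at 8.45, 8.68 and 8.63 against 7.43, 7.48 and 7.44 (-1.14 ± 0.08, adjusted p = 9.03e-05). Ptpn18, a tyrosine phosphatase, fell by 1.16 ± 0.17 (adjusted p = 0.00127). The remaining members of the 15 largest falls, C2cd4b, Dgkh, C2cd4a, Mir3543, Dbh and Ddc, are described with their groups. In cells that were induced and also given a compound, P2ry12 averaged 5.87 with compound 3 and 6.58 with compound 6, Sytl4 5.99 and 6.34, and Itga1 6.84 and 7.60, beside 6.61, 6.33 and 7.45 with vehicle.

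**Figure D2:**
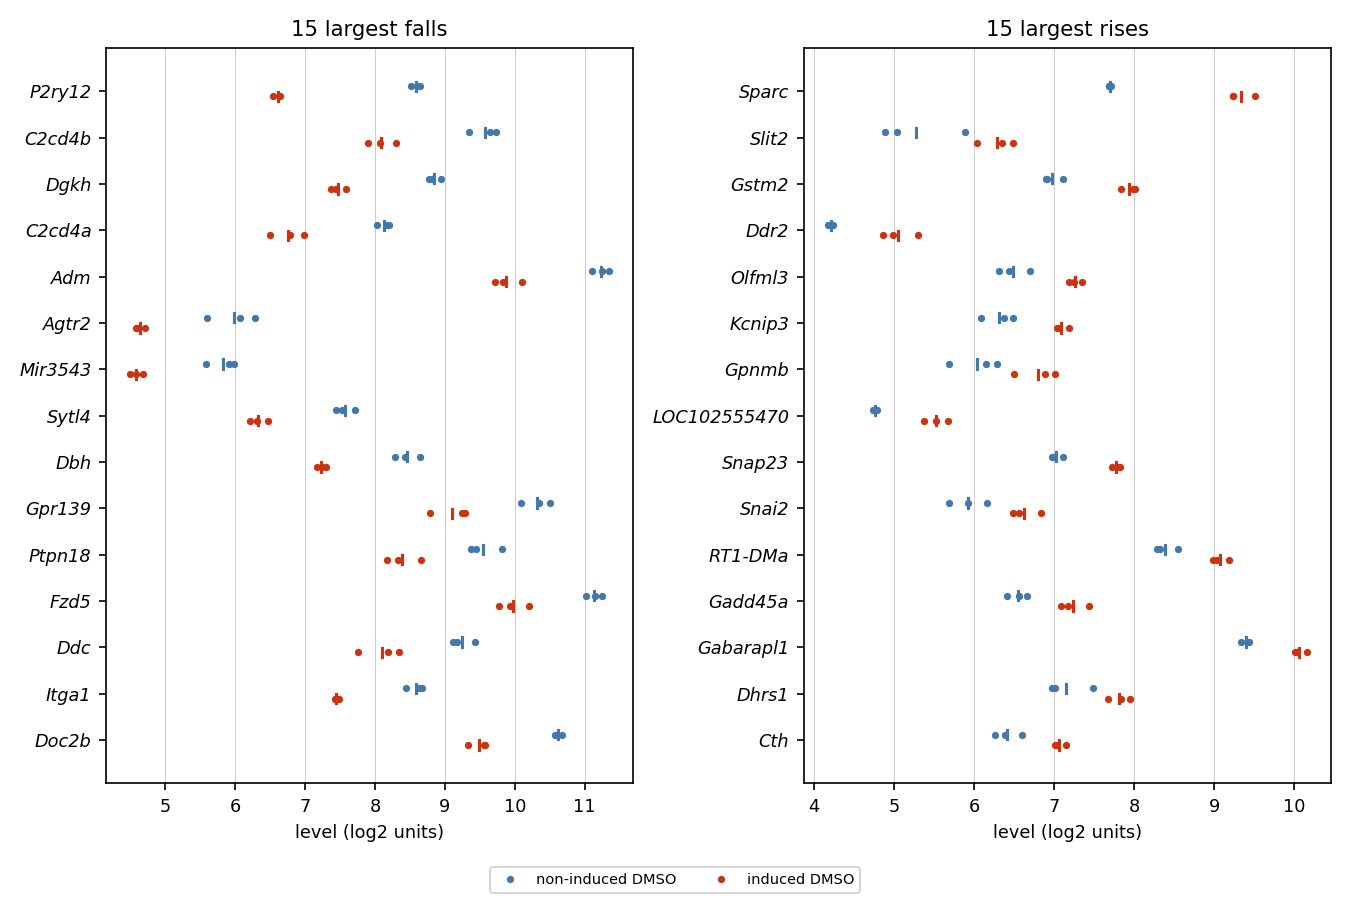
Each dot is the log2 level of a gene on 1 array, with 3 non-induced (blue) and 3 induced (red) DMSO arrays and a bar at each group mean, for the 15 largest falls and the 15 largest rises among called genes. These 30 genes were chosen among called genes whose groups do not overlap. The falls reach 1.98 log2 units, whereas the rises beyond Sparc (1.64) stay at or below 1.02.

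The rises were smaller, and individual matrix, lysosomal, stress and antigen-handling genes were among them. Sparc, a matricellular glycoprotein that binds collagen, moved from 7.68, 7.71 and 7.69 to 9.24, 9.51 and 9.24, a 3.11-fold rise (adjusted p = 9.03e-05). Ddr2, a receptor kinase that is activated by collagen, stood at 4.22, 4.17 and 4.23 and then at 4.99, 5.30 and 4.86 (0.84 ± 0.13, adjusted p = 0.00175). Its non-induced level was below the filter value of 4.631 and it passed the filter through the induced groups. Slit2, a repulsive guidance ligand, was uneven without induction, at 5.89, 5.04 and 4.89 against 6.35, 6.48 and 6.04 with it (1.02 ± 0.24, adjusted p = 0.0196). Kcnip3, a calcium-binding partner of potassium channels, rose by 0.78 ± 0.12 (adjusted p = 0.00152). Snap23, a membrane fusion protein, was nearly identical within groups, at 7.11, 6.98 and 6.97 against 7.78, 7.82 and 7.72 (0.75 ± 0.05, adjusted p = 9.03e-05). Gpnmb, a transmembrane glycoprotein of lysosomes and melanosomes, went from 6.28, 6.15 and 5.68 to 6.89, 7.01 and 6.50 (adjusted p = 0.0263). It averaged 8.07 with compound 3 and 7.04 with compound 6 in induced cells. The calls of Slit2 and Gpnmb were each lost in 4 alternatives (of 20 and 21 run), among them without non-induced array 2, non-induced array 3 or induced array 2. Snai2, a repressor known from neural crest cells, rose by 0.70 ± 0.13 (adjusted p = 0.0052), RT1-DMa, a subunit that loads peptides on class II antigen-presenting molecules, by 0.69 ± 0.09 (adjusted p = 0.000815), and Cth, which makes cysteine from cystathionine, by 0.65 ± 0.08 (adjusted p = 0.000587). Dhrs1, a short-chain dehydrogenase, rose by 0.66 (adjusted p = 0.00782), a call lost when only the 6 arrays were fitted. LOC102555470, which carries no functional name, rose by 0.76 ± 0.10 (adjusted p = 0.000741). Gstm2, Gadd45a, Gabarapl1 and Olfml3 complete the 15.

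The chromaffin identity of the cells was visible on all arrays. All 11 chromaffin markers named on the array were over the filter, and their summed level was 14.71 to 14.78 on non-induced arrays and 14.03 to 14.28 on induced arrays, with 9 of the 11 called lower and 1, the lineage factor Gata3, called higher. Summed levels add unlogged values, so Th, Chgb and Chga weigh most here (means of 12.70, 12.64 and 12.56 without induction). All 3 belong to the brightest 10% of features, in which the induced arrays differed. The call of Gata3 (adjusted p = 0.0471) was lost in 16 of 21 alternatives, every other scaling included. Slc18a1, called lower at -0.98 (adjusted p = 0.0364), lost its call in 7 of 21. In the list of monoamine enzymes and transporters 6 of 18 measured members were called lower and 0 higher (33.3% and 0%), with a median of -0.11. Dbh, which makes noradrenaline from dopamine, stood at 8.64, 8.43 and 8.29 and then at 7.30, 7.17 and 7.24 (adjusted p = 0.00104). Gch1, needed for the cofactor of tyrosine hydroxylase, averaged 11.07 ± 0.10 (SD, n = 3) without induction and measured 10.09, 9.97 and 10.19 with it (limma adjusted p = 0.0001). Cyb561, the granule cytochrome that feeds electrons to dopamine hydroxylation, fell from 10.44, 10.49 and 10.55 to 9.78, 9.53 and 9.68 (-0.83 ± 0.13, adjusted p = 0.00202). Ddc, which makes dopamine from L-DOPA, had 9.43, 9.11 and 9.18 and then 8.35, 7.76 and 8.19, and Th, tyrosine hydroxylase itself, 12.81, 12.58 and 12.70 and then 12.30, 11.76 and 12.12. Th did not pass (adjusted p = 0.166), although its groups do not overlap either, as was true of 31.6% of all genes. Without induced array 2 only 3 of the 6 calls were made and that of Ddc was lost. Of the neuropeptide precursors and granins 5 of 29 were called lower and 0 higher (17.2% and 0%). Beside Adm these were Vgf, Chga, Chgb and, named after its values were seen, Scg2. The calls of Chga and Chgb, granule matrix proteins at -0.42 and -0.34, were lost in 8 and 2 of 21 alternatives. Both were lost after quantile normalisation and after cyclic loess, and that of Chga also without a filter and without non-induced array 1, 2 or 3 or induced array 2 or 3.

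Markers of other cell types that such a culture could hold gave few calls. Of 8 fibroblast markers 4 were over the filter and 0 were called, and Dcn, Lum, Pdgfra and Postn were under it. The summed level of all 8 was 8.01 to 8.11 without induction and at most 8.18 with it. Sparc and Ddr2 rose while Col1a1 (0.01), Col1a2 (-0.01) and Col3a1 (0.04), the fibrillar collagens, did not pass. None of the 5 Schwann and glial, 4 adrenal cortical, 1 macrophage and 3 endothelial markers over the filter were called. The epithelial keratins Krt8 and Krt18 fell by 0.61 ± 0.09 (adjusted p = 0.00147) and 0.67 ± 0.13 (adjusted p = 0.00694), while Epcam, the epithelial adhesion molecule, lay at -0.07 (adjusted p = 0.571). The summed level of the 5 epithelial markers was 12.64 to 12.81 and then 12.04 to 12.27. Both keratin calls were lost after quantile normalisation, with adjusted p up to 0.0939. In bulk RNA fewer cells of a type and less RNA per cell cannot be told apart.

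Genes of regulated exocytosis were the list with the most members called, with 12 of 48 lower and 4 higher (25% and 8.33%). The falls included granule tethers and sensors. Rab27a, the small GTPase that holds granules at the membrane together with granuphilin, went from 10.04, 10.10 and 10.04 to 9.67, 9.75 and 9.78 (-0.33 ± 0.04, adjusted p = 0.00101). Among members named after their values were seen, like Vamp2, Stx1a and Syt11 below, the Rab effector Rph3a stood at 8.29, 8.36 and 8.41 and then 7.65, 7.63 and 7.91 (-0.62 ± 0.10, adjusted p = 0.0021), its relative Rph3al at -0.46, the fusion cofactor Napb at -0.49, the fusion clamp Cplx2 at -0.29 and the calcium sensor Syt1 at -0.26. The Q-SNARE Snap25, also chosen in this way, fell from 11.74, 11.52 and 11.38 to 11.22, 10.91 and 10.83 (-0.56 ± 0.13, adjusted p = 0.023), in the opposite direction to its widely expressed relative Snap23. The GTPase Rab3d rose by 0.30 ± 0.05 (adjusted p = 0.00412) and the SNARE Stx3 by 0.29 ± 0.06 (adjusted p = 0.0122). Rab3a, the abundant neuronal relative of Rab3d and named after its values were seen, rose by 0.40 (adjusted p = 0.033). The partner SNAREs Vamp2 (0.10, adjusted p = 0.54) and Stx1a (-0.02, adjusted p = 0.892) did not pass. The list's median was -0.02. Without induced array 2 the list had 7 members lower and 2 higher, and without non-induced array 2 it had 2 higher. The calls of Snap25, Syt1, Cplx2, Stx3 and Rab3a were each lost in 3 to 8 alternatives.

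**Figure D3:**
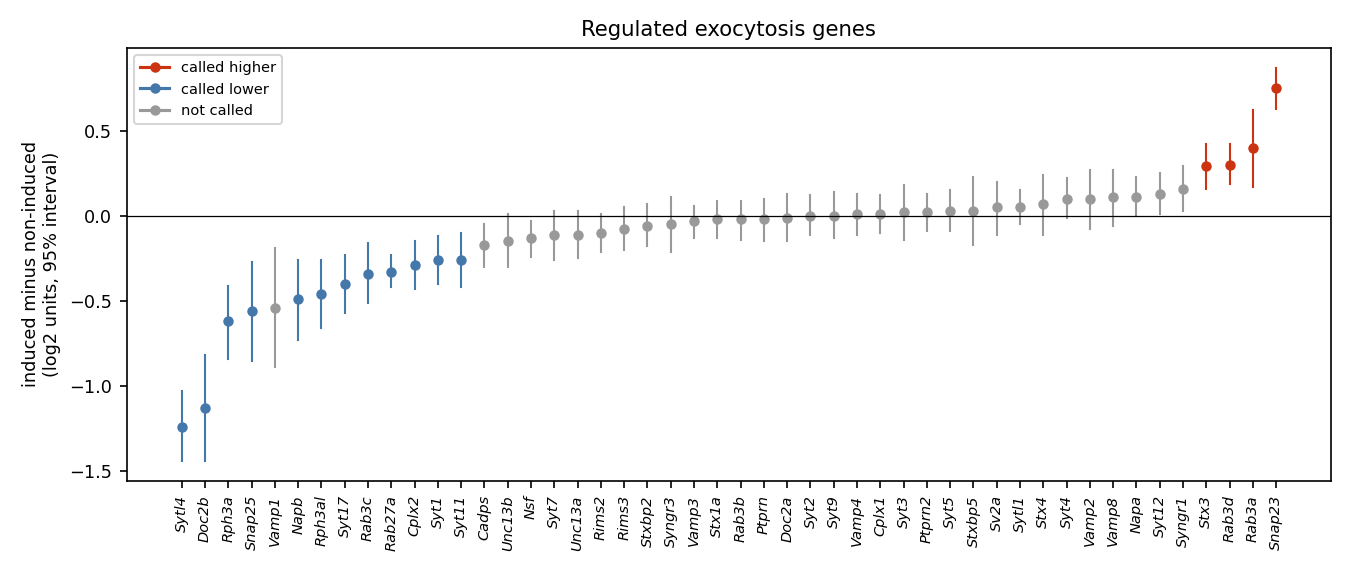
Difference (induced minus non-induced, log2 units) with its 95% interval for the 48 measured genes of regulated exocytosis, ordered by size, with 3 arrays per group. The 12 called lower run from Sytl4 at -1.24 to Syt11 at -0.26, and the 4 called higher end with Snap23 at 0.75.

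Several nicotinic receptor subunits and ion channels fell. In the list of ligand-gated channels 5 of 22 were called lower and 0 higher (22.7% and 0%), and 4 of the 5 were nicotinic. Chrnb4, the beta subunit of the ganglionic receptor, measured 8.23, 8.17 and 8.18 and then 7.47, 7.29 and 7.51 (-0.77 ± 0.11, adjusted p = 0.00126). Chrna5, an accessory subunit of the same receptor, went from 7.98, 7.76 and 7.66 to 7.28, 7.22 and 7.31 (-0.53 ± 0.11, adjusted p = 0.0091). The ganglionic alpha subunit Chrna3, named after its values were seen, fell by 0.59 ± 0.15 (adjusted p = 0.036), but this call was lost in 9 of 21 alternatives, quantile normalisation and cyclic loess included. Chrna7, which forms a calcium-permeable receptor of its own, stood at 9.31, 9.46 and 9.18 against 8.79, 8.81 and 8.63 (-0.57 ± 0.09, adjusted p = 0.00196). The list held 3 lower members without non-induced array 1, non-induced array 3 or induced array 2. Among potassium channel genes 7 of 36 were lower and 3 higher (19.4% and 8.33%), and 7 were lower whichever array was left out. Kcnc4 and Kcnma1, a voltage-gated channel and the large-conductance calcium-activated channel, fell by 0.44 ± 0.05 (adjusted p = 0.000614) and 0.41 ± 0.06 (adjusted p = 0.00102), and Kcnk3, an acid-sensitive leak channel, by 0.36 ± 0.05 (adjusted p = 0.000951). The largest fall of the list, chosen after its values were seen, was Kcnn3, a small-conductance calcium-activated channel, from 9.83, 9.57 and 9.90 to 8.86, 8.57 and 8.93. Kcnd3, an A-type channel whose family Kcnip3 binds, rose by 0.46 ± 0.08 (adjusted p = 0.00378), and Kcnk12 rose by 0.26 (adjusted p = 0.0337), and was not called in 9 of 21 alternatives. Of 20 sodium and calcium channel genes Scn3b and Cacna1c, an accessory sodium channel subunit and the pore of the L-type calcium channel, were called lower at -0.70 ± 0.07 (adjusted p = 0.000223) and -0.41 ± 0.07 (adjusted p = 0.00359). Scn2a was called higher at 0.34 (adjusted p = 0.0259), but not without non-induced array 2, non-induced array 3 or induced array 2. In that list 10% were thus lower and 5% higher.

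Among genes between receptor and second messenger more were called lower than higher, but the medians of their lists lay between -0.01 and 0.02. Of 42 G-protein-coupled receptors of the list 5 were lower and 2 higher (11.9% and 4.76%). Bdkrb2, a bradykinin receptor, went from 8.19, 8.02 and 8.19 to 7.10, 7.16 and 7.34 (-0.93 ± 0.09, adjusted p = 0.000218). Named after their values were seen, Adcyap1r1, the receptor of the peptide PACAP that drives chromaffin secretion, and the adenosine receptor Adora2a fell by 0.45 (adjusted p = 0.00113) and 0.79 (adjusted p = 0.0325). Ntsr2 and Galr2, receptors of neurotensin and galanin, rose by 0.41 (adjusted p = 0.0121) and 0.30 (adjusted p = 0.0371). The call of Galr2 was lost in 11 of 21 alternatives, and without non-induced array 3 neither of these rises was called. In the list of diacylglycerol and protein kinase C signalling 8 of 38 were lower and 1 higher (21.1% and 2.63%), and without non-induced array 3 the lower count was 5. Dgkh, which converts diacylglycerol to phosphatidic acid, stood at 8.94, 8.77 and 8.82 and then 7.58, 7.45 and 7.37 (-1.38 ± 0.10, adjusted p = 9.03e-05). The C2-domain genes C2cd4b and C2cd4a, neighbours in mammalian genomes, went from 9.64, 9.35 and 9.73 to 8.07, 7.90 and 8.30 and from 8.17, 8.03 and 8.20 to 6.79, 6.50 and 6.99. C2cd4b, one of the 15 largest falls, is counted in this list, whose lowest difference is its -1.48. The list was written with earlier results of these data known, so its share does not describe the signalling pathway as such. The kinases Prkca and Prkce, which diacylglycerol activates, named after their values were seen, fell by 0.25 (adjusted p = 0.0155) and 0.26 (adjusted p = 0.0161), while Prkcz, which diacylglycerol does not activate, rose by 0.22 (adjusted p = 0.00771). Of 49 cAMP enzymes, anchors and RGS proteins 5 were lower and 3 higher (10.2% and 6.12%). The lower count was 3 without non-induced array 3 and 2 without induced array 2. Pde3a, a phosphodiesterase that breaks down cyclic AMP, fell by 0.88 ± 0.12 (adjusted p = 0.00107), from 9.05, 8.96 and 8.98 to 8.31, 7.97 and 8.08. Rgs2, which shortens signalling of Gq-coupled receptors, rose from 4.75, 4.64 and 4.69 to 5.01, 5.03 and 4.95 (adjusted p = 0.00238), whereas its relative Rgs9 fell by 0.37 (adjusted p = 0.0157). Among 47 calcium-handling genes 5 were lower and 2 higher (10.6% and 4.26%). Ryr2, a calcium release channel of the endoplasmic reticulum, fell by 0.57 ± 0.05 (adjusted p = 0.000122) and Stim2, a sensor of store calcium, rose by 0.41 ± 0.07 (adjusted p = 0.0025). The lower count of that list was 2 without non-induced array 3 and 3 without induced array 2.

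Several growth factor receptors and feedback genes of the MAP kinase cascade fell. Of 26 receptor genes 3 were called lower and 1 higher (11.5% and 3.85%), and the median of the 26 was 0.03. Ngfr, the low-affinity neurotrophin receptor, measured 10.54, 10.37 and 10.35 and then 9.70, 9.51 and 9.55 (-0.83 ± 0.12, adjusted p = 0.00163). Egfr, the epidermal growth factor receptor, went from 8.39, 8.51 and 8.49 to 7.77, 7.93 and 7.89 (-0.60 ± 0.07, adjusted p = 0.000474). Ret, the receptor kinase for glial-derived ligands, had 9.80, 9.11 and 9.48 before and 8.64, 8.33 and 8.58 after induction (-0.95 ± 0.18, adjusted p = 0.00554). These 3 calls held in every alternative but the minimum change of 1.5-fold, whereas that of Fgfr3, at 0.26, was lost in 7 of 21. In the list of feedback regulators 8 of 32 were lower and 2 higher (25% and 6.25%), with 7 to 9 lower whichever array was left out. Ptprr, a phosphatase that inactivates MAP kinases, stood at 7.46, 7.42 and 7.47 and then at 6.89, 6.78 and 6.82 (-0.62 ± 0.06, adjusted p = 0.000218). Spred2, an inhibitor of the kinase Raf, went from 8.97, 8.89 and 9.01 to 8.43, 8.47 and 8.41 (-0.52 ± 0.06, adjusted p = 0.000671). Members named after their values were seen were the transcription factors Etv5 (-0.52, adjusted p = 0.00625) and Etv4 (-0.37, adjusted p = 0.00958) and the inhibitor Spry4 (-0.36, adjusted p = 0.00723), genes known to rise when the cascade is active. The phosphatases Dusp9 and Dusp14 rose by 0.28 and 0.18, and neither was called without non-induced array 1, non-induced array 3 or induced array 2. Of 35 growth factors and IGF-binding proteins 4 were lower and 3 higher (11.4% and 8.57%). Vegfa, the main angiogenic factor, fell from 10.12, 9.69 and 9.93 to 9.36, 9.04 and 9.14 (adjusted p = 0.00492), and Igfbp6 rose from 7.81, 7.78 and 7.68 to 8.01, 8.18 and 8.12 (adjusted p = 0.00452). Without non-induced array 3 that list had 1 lower member, and without induced array 2 it had 2 lower and 1 higher.

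Of 40 measured genes that respond to calcium, cyclic AMP and CREB 10 were called lower and 1 higher (25% and 2.5%), with a median of -0.11, and 30 of the 40 had a difference below 0. Fos, a subunit of the AP-1 factor, stood at 6.02, 6.11 and 6.33 and then at 5.21, 5.26 and 5.45 (adjusted p = 0.000444). Klf10, an early-response repressor, went from 8.60, 8.37 and 8.42 to 7.90, 7.91 and 7.98 (-0.53 ± 0.06, adjusted p = 0.000539). Arc, known from synaptic plasticity, measured 8.83, 8.94 and 8.91 against 8.29, 8.25 and 8.29 (adjusted p = 0.0001). The remaining falls were Dusp1, Vgf and, named after their values were seen, Sik1, Nr4a1, Scg2, Nr4a2 and Fosl2. The rise was Rgs2. The calls of Nr4a2 (adjusted p = 0.0407) and Fosl2 (adjusted p = 0.0498) were lost in 12 of 20 and 13 of 21 alternatives. Leaving out 1 array left 8 to 10 members lower. The list was built from genes known to respond to CREB, with earlier results of these data known.

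The cAMP response element was searched in RefSeq promoters of the rat assembly GRCr8, from 250 bases before to 50 after each gene's start, as TGACGTCA, which reads the same on both strands, and in its shorter form TGACG on either strand, which every full match also contains. The full motif was found in 1.91% of 27457 promoters, in 2.96% of those of measured genes, in 3.45% of genes called lower and in 3.31% of genes called higher. Of the 10 list members called lower 7 had a promoter in the table, and 3 of these 7 held the full motif, beside 5 of 21 list members that were not called. The shorter form was in 6 of the 7 and in 13 of the 21. The 3 promoters are shown because their genes carry both the fall and the motif. Each is a stretch of 100 bases around the motif, not the 100 bases next to the gene start. The stretches run 5′ to 3′ on the strand of the gene, with the motif in capitals.
Vgf, chr12:25277057-25277156, minus strand, motif starting 90 bases before the gene start: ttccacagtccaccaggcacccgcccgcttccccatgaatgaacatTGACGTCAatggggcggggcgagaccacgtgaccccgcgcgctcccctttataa
Scg2, chr9:88256936-88257035, minus strand, motif starting 123 bases before the gene start: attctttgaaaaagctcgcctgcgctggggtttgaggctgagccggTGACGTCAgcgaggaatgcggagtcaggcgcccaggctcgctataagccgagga
Dusp1, chr10:17184683-17184782, plus strand, motif starting 124 bases before the gene start: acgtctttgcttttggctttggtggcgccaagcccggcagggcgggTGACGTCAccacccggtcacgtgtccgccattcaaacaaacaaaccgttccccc
Vgf, the precursor of a neuropeptide family, stood at 10.30, 9.98 and 10.14 without and 9.62, 9.15 and 9.52 with induction (adjusted p = 0.00363). Scg2, the granin secretogranin, measured 11.94, 11.94 and 11.89 and then 11.45, 11.24 and 11.13 (adjusted p = 0.00386). Dusp1, a phosphatase of MAP kinases, had 8.28, 7.74 and 8.06 and then 7.37, 7.06 and 7.42 (-0.74 ± 0.14, adjusted p = 0.00623). In all 3 the groups do not overlap, as in 3113 of the 3120 called features and 31.6% of all genes. All 3 were called in every alternative but the minimum change of 1.5-fold. A match to the letters does not show that CREB binds there.

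**Figure D4:**
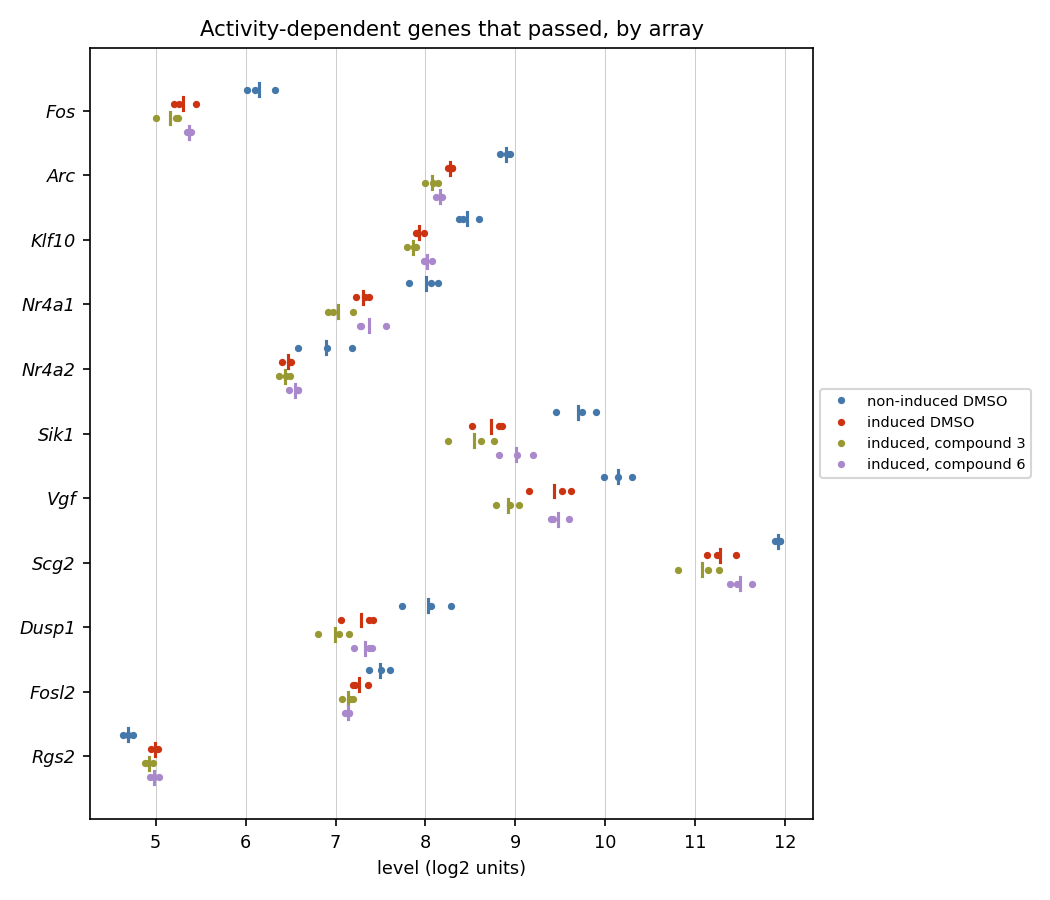
Log2 level on each of the 12 arrays, with a bar at each group mean, for the 11 called members of the list of CREB-responsive and activity-dependent genes. In 10 of them the 3 non-induced arrays lie above the 3 induced DMSO arrays, and in Rgs2 below them. Such separation held in 3113 of all 3120 called features. The compound groups, also induced, are shown beside them.

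Most calls among developmental signalling genes and lineage factors were falls. Of 54 Wnt and Notch pathway genes 10 were lower and 1 higher (18.5% and 1.85%), with 8 to 11 lower whichever array was left out. Tle3, a co-repressor that acts with both pathways, had the smallest p of the genes named here, at 9.24, 9.27 and 9.28 and then 8.26, 8.34 and 8.36 (-0.94 ± 0.05, adjusted p = 4.22e-05). Its relative Tle4 rose by 0.29 (adjusted p = 0.034), and was not called in 8 of 21 alternatives. Hes1, a repressor switched on by Notch, went from 6.79, 6.87 and 6.75 to 5.97, 5.97 and 5.93 (-0.85 ± 0.06, adjusted p = 9.03e-05). Named after their values were seen, its relative Hey1 fell by 0.75 (adjusted p = 0.000809), the Wnt effectors Lef1 by 0.44 (adjusted p = 0.000781) and Tcf7l2 by 0.40 (adjusted p = 0.00252) and the Wnt feedback gene Axin2 by 0.39 (adjusted p = 0.0101). In the TGF-beta and BMP list 5 of 37 were lower and 3 higher (13.5% and 8.11%). Id3, a BMP-responsive inhibitor of helix-loop-helix factors, fell from 7.29, 7.03 and 7.15 to 6.70, 6.70 and 6.62 (adjusted p = 0.000799), and Id1, named after its values were seen, by 0.94 (adjusted p = 0.0035). Smad3, a transducer of TGF-beta, rose from 5.77, 5.71 and 5.69 to 5.93, 5.98 and 6.00 (adjusted p = 0.0048). The higher count of that list was 1 without non-induced array 3 and 5 without induced array 1. Of 49 lineage and developmental factors 9 were lower and 4 higher (18.4% and 8.16%). Hand2, needed for sympathetic and chromaffin development, measured 10.16, 10.03 and 10.16 and then 9.23, 9.04 and 9.26 (adjusted p = 0.000508). Tcf4, a helix-loop-helix partner factor, went from 10.48, 10.43 and 10.32 to 9.87, 9.85 and 9.80 (-0.57 ± 0.06, adjusted p = 0.000257). Klf7, a factor of axon growth, fell by 0.49 ± 0.05 (adjusted p = 0.000494) and Insm1, an endocrine lineage factor named after its values were seen, by 0.79 (adjusted p = 0.000539). The higher count of 4 was 1 or 2 without non-induced array 2, non-induced array 3, induced array 2 or induced array 3.

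Of 45 nuclear receptors and clock genes 9 were called lower, 2 higher and 34 neither (20% and 4.44% lower and higher), with a median of 0.00. Leaving out 1 array left 6 to 8 members lower. Rara, a retinoic acid receptor, went from 10.00, 9.73 and 9.95 to 8.81, 8.60 and 8.89, a 2.18-fold fall (adjusted p = 0.000231). Bmal1, the partner of the clock factor Clock, stood at 8.56, 8.56 and 8.63 and then at 7.99, 7.95 and 8.08 (-0.58 ± 0.05, adjusted p = 0.000141). Bhlhe41 and its relative Bhlhe40, repressors that feed back on Bmal1 and Clock, fell by 0.68 ± 0.07 (adjusted p = 0.000268) and 1.04 ± 0.12 (adjusted p = 0.000567), the latter named after its values were seen. Clock itself (0.01, adjusted p = 0.935), Per1 (-0.17, adjusted p = 0.277) and Nr1d1 (-0.11, adjusted p = 0.435) did not pass. Dbp and Hlf, output factors of the clock, rose by 0.26 (adjusted p = 0.04) and 0.22 (adjusted p = 0.0312). They were not called in 13 and 7 of 21 alternatives. Neither rise was called without non-induced array 3, induced array 2 or induced array 3.

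Guidance, adhesion and matrix genes split by member. Of 45 axon guidance genes 7 were lower and 3 higher (15.6% and 6.67%). Slit3 fell from 8.93, 8.81 and 8.75 to 8.03, 7.93 and 7.93 (-0.87 ± 0.07, adjusted p = 0.000137), while its relative Slit2 was among the largest rises. Robo1, a receptor of Slit proteins, and Plxnd1, a receptor of semaphorins, fell by 0.33 ± 0.06 (adjusted p = 0.00488) and 0.59 ± 0.08 (adjusted p = 0.000841). Sema6b and Efna1, a semaphorin and an ephrin, each rose by 0.25 (adjusted p = 0.00854 and 0.00864). Cadherins and neural adhesion molecules gave 7 of 26 lower and 1 higher (26.9% and 3.85%), with 6 to 8 lower whichever array was left out. Pcdh1, a protocadherin, went from 9.05, 9.15 and 9.17 to 8.59, 8.61 and 8.63 (-0.51 ± 0.05, adjusted p = 0.000236). Alcam and Cadm1, adhesion molecules of the immunoglobulin family, fell by 0.51 ± 0.07 (adjusted p = 0.000953) and 0.46 ± 0.08 (adjusted p = 0.0034). Cntnap2, a neurexin relative, rose by 0.31 ± 0.06 (adjusted p = 0.00693) and was called higher in all 20 alternatives run on it other than the minimum change. Of 30 matrix genes 2 were higher, Sparc and Olfml3, and 0 lower (6.67% and 0%, beside 7.17% and 4.9% of all genes). Of 12 integrins and collagen receptors Ddr2 was higher and Itga1 lower (8.33% each). Olfml3, a secreted matrix scaffold, stood at 6.70, 6.31 and 6.43 and then 7.18, 7.35 and 7.25 (adjusted p = 0.00133). Among 19 proteases and inhibitors Plat, the tissue plasminogen activator stored in chromaffin granules, fell from 11.52, 11.34 and 11.43 to 10.84, 10.55 and 10.63 (-0.76 ± 0.10, adjusted p = 0.000856). Adam12, a metalloprotease, rose by 0.42 (adjusted p = 0.0209), but was not called without non-induced array 2, non-induced array 3 or induced array 2. Plat and Adam12 are each 5.26% of their list. Cytoskeletal genes of the actin and intermediate filament list gave 8 of 54 lower and 2 higher (14.8% and 3.7%). Without non-induced array 3 or induced array 2, 5 were lower. Actn1, an actin cross-linker, fell by 0.52 ± 0.06 (adjusted p = 0.000409), beside Krt8, Krt18 and Krt7, and Zyx, a focal adhesion protein, rose by 0.28 ± 0.05 (adjusted p = 0.00734). Of 51 tubulin, microtubule and motor genes 3 were higher and 3 lower (5.88% each).

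Of 29 glutathione genes 9 rose and 1 fell (31% and 3.45%). The list's median was 0.16 as deposited and 0.13 to 0.15 under the other scalings. Gstm2, a transferase that couples glutathione to reactive compounds, went from 7.11, 6.91 and 6.90 to 8.01, 7.98 and 7.83 (0.97 ± 0.09, adjusted p = 0.000175). Gstp1 and Gsta4, transferases of other classes, stood at 8.24, 8.25 and 8.23 against 8.76, 8.70 and 8.68 (adjusted p = 0.000575) and at 7.72, 7.79 and 7.81 against 8.10, 8.12 and 8.09 (adjusted p = 0.00135). Named after their values were seen, the synthesis enzyme Gclc rose by 0.28 (adjusted p = 0.00928), Gss, the enzyme of the next step, by 0.30 (adjusted p = 0.0108), and the peroxidases Gpx8 and Gpx1 by 0.50 (adjusted p = 0.00844) and 0.34 (adjusted p = 0.0218). Chac1, which degrades glutathione, fell by 0.21 (adjusted p = 0.02), and was not called in 6 of 21 alternatives, without non-induced array 3 and without induced array 2 included. Leaving out 1 array left 7 to 11 members higher.

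Targets of p53 and members of the BCL2 family moved in both directions. Of 27 p53 targets 5 were higher and 3 lower (18.5% and 11.1%), with a median of 0.09. Gadd45a, a growth arrest gene, rose from 6.41, 6.56 and 6.66 to 7.09, 7.43 and 7.17 (0.69 ± 0.10, adjusted p = 0.00136) and was called in every alternative but the minimum change. Mdm2, the ubiquitin ligase of p53, and Rrm2b, a subunit of ribonucleotide reductase, rose by 0.23 (adjusted p = 0.0155) and 0.25 (adjusted p = 0.0147), calls lost in 5 and 4 of 21 alternatives. The cell cycle inhibitor Cdkn1a did not pass (-0.07, adjusted p = 0.785). Plk3, a stress kinase, fell from 8.17, 7.96 and 8.13 to 7.43, 7.53 and 7.52 (-0.59 ± 0.06, adjusted p = 0.000277). The 5 rises became 1 without non-induced array 3 or induced array 2, and 3 without non-induced array 2, compound 6 array 1 or compound 6 array 3. The 3 falls became 1 without non-induced array 1, non-induced array 2 or induced array 3, and at most 2 were called whichever array was left out. The other falls, Zmat3 (-0.21, adjusted p = 0.0379) and Plk2 (-0.70, adjusted p = 0.0381), lost their calls in 14 and 9 of 21 alternatives. Of 22 BCL2 family genes 3 were higher and 2 lower (13.6% and 9.09%). The rises were the pro-apoptotic Bax, Bak1 and Bid, at 0.26 (adjusted p = 0.0345), 0.25 (adjusted p = 0.00862) and 0.28 (adjusted p = 0.0265). Bcl2l1, which opposes them, fell from 7.69, 7.56 and 7.66 to 7.25, 7.31 and 7.37 (-0.33 ± 0.05, adjusted p = 0.00176). Bcl2l11, which promotes apoptosis, also fell, by 0.28 (adjusted p = 0.00815). Without non-induced array 2, non-induced array 3, induced array 2 or induced array 3 the family had 1 member higher.

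Most calls among protein quality control genes were small rises. Of 49 cytosolic chaperones and heat shock factors 7 were higher and 0 lower (14.3% and 0%). Dnajb4, a co-chaperone, went from 7.05, 6.94 and 6.94 to 7.44, 7.49 and 7.31 (0.44 ± 0.07, adjusted p = 0.00188), and the neuronal co-chaperones Dnajc6 and Dnajb2 rose by 0.32 (adjusted p = 0.0032) and 0.28 (adjusted p = 0.00542). Hspa1a, the inducible Hsp70 and named after its values were seen, rose by 0.30 (adjusted p = 0.0178), whereas its constitutive relative Hspa8 lay at 0.03 (adjusted p = 0.702). The count of 7 was 4 without non-induced array 1, 2 or 3 or induced array 2. In the endoplasmic reticulum list 5 of 37 were higher and 0 lower (13.5% and 0%). Atf6b, a membrane-bound stress factor, stood at 8.46, 8.35 and 8.42 and then at 8.83, 8.81 and 8.81 (0.41 ± 0.05, adjusted p = 0.000614). Selenos, of the degradation channel, rose by 0.30 ± 0.05 (adjusted p = 0.00187) and Fkbp14, a prolyl isomerase, by 0.46 ± 0.07 (adjusted p = 0.00195), while the main chaperone Hspa5 lay at 0.02 (adjusted p = 0.858). The count of 5 was 3 without non-induced array 2, non-induced array 3, induced array 2 or induced array 3. Of 44 genes of mitochondrial quality control 6 were higher and 1 lower (13.6% and 2.27%). Oma1, a stress-activated protease, went from 6.18, 6.17 and 6.03 to 6.42, 6.49 and 6.46 (0.33 ± 0.05, adjusted p = 0.00281), Pink1, the kinase that marks damaged mitochondria, rose by 0.27 ± 0.05 (adjusted p = 0.00631) and the protease Afg3l2 by 0.23 ± 0.04 (adjusted p = 0.00503). The fall of Clpx (-0.16, adjusted p = 0.0496) was lost in 19 of 21 alternatives.

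Antigen presentation and interferon genes gave 6 of 35 higher and 0 lower (17.1% and 0%), with a median of 0.07. Mx2, an interferon-induced GTPase, went from 5.23, 5.18 and 5.22 to 5.75, 5.66 and 5.64 (0.47 ± 0.05, adjusted p = 0.000494). Tap1, which carries peptides into the endoplasmic reticulum, stood at 7.59, 7.68 and 7.75 and then at 8.02, 8.16 and 8.14 (0.43 ± 0.06, adjusted p = 0.000953), and Psmb9, a subunit of the immunoproteasome, rose by 0.28 ± 0.05 (adjusted p = 0.00528). The count was 3 without non-induced array 3 or induced array 3. Of the 7 macrophage markers 6 were under the filter, and Cd68 lay at 0.06 (adjusted p = 0.855).

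Among 41 huntingtin-binding and aggregate-handling genes 4 were higher and 2 lower (9.76% and 4.88%). Of all genes 7.17% were higher and 4.9% lower, so the list lies near the background. Rest, the repressor of neuronal genes that huntingtin retains in the cytoplasm, rose from 5.19, 5.10 and 4.92 to 5.48, 5.58 and 5.40 (0.42 ± 0.08, adjusted p = 0.00642). Sqstm1 and Optn, receptors of selective autophagy, rose by 0.27 (adjusted p = 0.0163) and 0.22 (adjusted p = 0.0185), calls lost in 4 and 8 of 21 alternatives. Gabarapl1, a partner of such receptors on the autophagosome, measured 9.34, 9.44 and 9.41 and then 10.01, 10.16 and 10.02 (0.67 ± 0.06, adjusted p = 0.000162). Sh3gl3, an endophilin that binds exon 1 of huntingtin, fell by 0.37 ± 0.06 (adjusted p = 0.00338), and Rasd2, a striatal GTPase that binds the mutant protein, by 0.25 (adjusted p = 0.0197), and was not called in 6 of 21. The count of 4 rises was 1 without non-induced array 2, non-induced array 3 or induced array 2 and 2 without non-induced array 1 or induced array 3, and the 2 falls became 1 without non-induced array 1 or non-induced array 3. The rat Htt feature stood at 7.77, 7.66 and 7.85 and then at 7.76, 7.95 and 7.88, with overlapping groups (0.10 ± 0.10, adjusted p = 0.615). Whether its probes bind the introduced fragment is not given in the sources used here, so it does not check the induction.

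Several housekeeping lists had few calls. Among 17 cytosolic aminoacyl-tRNA synthetases 0 were called in limma, with differences from -0.11 to 0.13. Among 40 translation factors 1 (2.5%), Eif2b1, rose by 0.20 (adjusted p = 0.0308), and was not called in 9 of 21 alternatives. Of 60 spliceosome and hnRNP genes 3 were lower and 0 higher, which is 5% beside a background of 4.9%. The 3 became 1 without non-induced array 3 or induced array 3 and 7 without induced array 1. Of 43 fatty acid genes 3 were lower and 0 higher (6.98% and 0%). Among them Lpl, a lipase that frees fatty acids from lipoproteins, went from 11.99, 11.98 and 11.94 to 11.41, 11.18 and 11.22 (-0.70 ± 0.09, adjusted p = 0.0007). Targets of the stress factor ATF4 gave 3 higher and 3 lower of 38 (7.89% each). Stc2 and Ddit4, a secreted hormone and an inhibitor of mTOR signalling, fell by 0.63 ± 0.08 (adjusted p = 0.000681) and 0.61 ± 0.08 (adjusted p = 0.00075), whereas Cth and the hormone gene Fgf21 rose, the latter by 0.40 (adjusted p = 0.0147). The higher count of that list was 1 without non-induced array 3 or induced array 2 and 6 without induced array 1. Of the 38 lists 33 had a median within 0.04 of 0 as deposited, and in 16 of these 33 the sign turned between scalings. The other 5, for monoamine, CREB-responsive, glutathione, p53 target and interferon genes, kept their sign in all 4 scalings. This division depends on the scaling. Under the other scalings the interferon median was 0.04. Medians among the 33 reached 0.14 for aminoacyl-tRNA synthetases, 0.11 for mitochondrial quality control and 0.10 for translation factors. Since the lists were written with earlier results of these data known, their shares describe these genes and are no independent evidence.

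**Figure D5:**
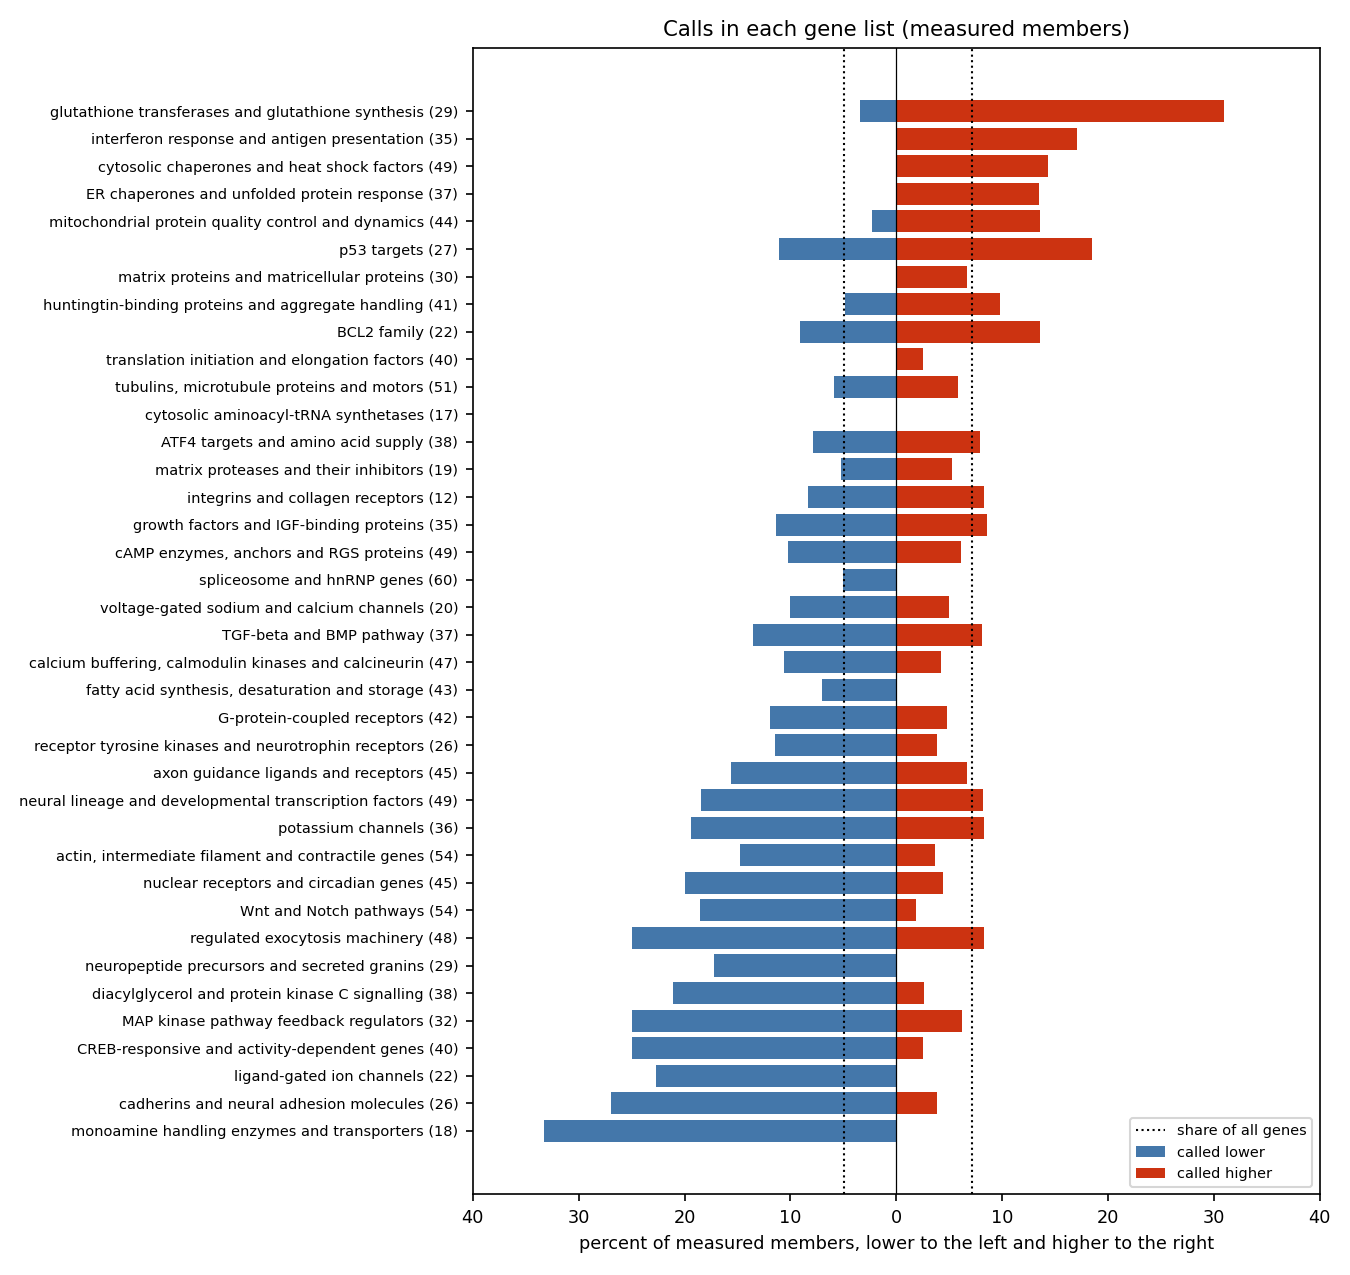
Percent of measured members called lower (blue, to the left) and higher (red, to the right) in the 38 gene lists, with the number of measured members in brackets and dotted lines at the shares of all 15313 genes, 4.9% lower and 7.17% higher. The list of monoamine genes has the largest share lower (33.3%) and that of glutathione genes the largest share higher (31%).

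Of 156 features named for microRNA genes 9 were called (5.77%, beside 12.1% of all genes), 7 higher and 2 lower. These shares were not matched for level. The array measures the precursor or its host transcript, not the mature product. Mature sequences of the 2 falls and of the 2 larger rises for which the host gene gave another value are shown 5′ to 3′ from RefSeq on GRCr8, with the seed (bases 2 to 8) in capitals.
rno-miR-3543, chr6:134330451-134330473, minus strand: cAGGAGUCgagugaugguucaaa
rno-miR-218a-5p, chr10:20572547-20572567, plus strand: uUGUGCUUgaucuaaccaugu
rno-miR-322-5p, chrX:137726198-137726219, minus strand: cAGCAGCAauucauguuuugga
rno-miR-425-5p, chr8:118143094-118143116, plus strand: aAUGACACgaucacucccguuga
No 2 of these share a seed. Mir3543 went from 5.59, 5.92 and 5.99 to 4.59, 4.50 and 4.68, a 2.37-fold fall (adjusted p = 0.000137). It averaged 4.52 with compound 3 and 4.57 with compound 6, so only the non-induced group was above the filter value and carried it past the filter. In the RefSeq gene table it lies within Rtl1, an imprinted gene for which no feature was tested. Dlk1, an imprinted Notch ligand known to neighbour Rtl1 and named after its values were seen, fell by 0.42 (adjusted p = 0.0308). Mir218-2 fell from 6.28, 5.86 and 5.79 to 5.28, 5.19 and 5.77 (-0.56 ± 0.15, adjusted p = 0.0406). It lies within Slit3, which also fell, so these need not be separate transcripts. Mir322 rose from 4.53, 4.22 and 4.45 to 4.77, 4.76 and 4.99 (0.44 ± 0.11, adjusted p = 0.0276), whereas the overlapping non-coding gene LOC102550366 lay at -0.24 ± 0.23 (adjusted p = 0.609). All 3 non-induced values of Mir322 were below the filter value of 4.631, and it passed through the induced groups. Mir425 stood at 5.52, 5.50 and 5.46 and then at 5.61, 5.98 and 6.02 (0.38 ± 0.09, adjusted p = 0.0245), beside Dalrd3, in which it lies, at 0.07 ± 0.05 (adjusted p = 0.54). Mir338 and the kinase gene Aatk that holds it both rose, by 0.21 (adjusted p = 0.0453) and 0.22 (adjusted p = 0.0468). The differences between a microRNA feature and its host were not tested.

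Of 18073 features without a gene symbol 4.86% were lower and 1.54% higher, beside 4.89% and 7.14% of 16054 features with 1 symbol. The median levels of these sets were 5.98 and 7.41, and they were not matched for level. The share called higher varied with level, from 0.898% in the lowest of the 10 level groups to 9.45% in the 7th. Among the brightest 10% of features 15.8% of the 2716 features without a symbol were lower, against 8.57% of the 712 named ones. The largest falls among them were TC1200000390.rn.1, from 10.58, 10.16 and 10.73 to 9.04, 8.56 and 9.13 (adjusted p = 0.00232), and TC1000003286.rn.1, from 11.22, 11.24 and 11.34 to 9.86, 9.52 and 9.80 (adjusted p = 0.000494). Among the 879 features without a symbol called lower 81 (9.22%) had an identifier next to that of a named feature called in the same direction. For 9 the named neighbour was called in the opposite direction. Among the 278 called higher the numbers were 37 (13.3%) and 4. The share among all features without a symbol was not computed, so these values have no background to be read against. Of 648 genes with more than 1 feature, all features were called the same way in 55, some in 57 and none in 536, and 0 genes had features with opposing calls.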

How the data were processed

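The authors' deposited log2 values per transcript cluster came from the Affymetrix Rat Transcriptome Array, made with Expression Console and RMA per the submitters' processing notes, without versions. They came from 250 ng of total RNA per array, per the labels. The table held 70580 features. Control features, 1738, were left out, and features with a mean over 12 arrays at or above the median (4.631) were kept. Symbols came from the platform annotation, with 1 updated through RefSeq.

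Means of 4 groups of 3 arrays were fitted in limma 3.58.1 under R 4.3.3 (eBayes without trend, 8 residual degrees of freedom, prior 3.27). The median standard error of a difference was 0.072. The model was tested on simulated data. For lists, a gene took its feature with the highest mean, and 29 entries matched through synonyms. The 38 lists (1724 entries) and the groups compared were chosen with earlier results of these data known. Named genes were, among called features with 1 symbol and no overlap, the 15 largest rises and falls, up to 3 per list and direction with the smallest p, Htt and the markers. Other called genes are said to be named after their values were seen, and genes named as not called, apart from Htt and the markers, were chosen in that way too. Alternatives were other filters, scalings and variance models, a replicate block, the 6 arrays alone, a minimum change of 1.5-fold and leaving out each array. Tables and figures used Python 3.11.15, pandas 2.3.3 and matplotlib 3.10.9. The number of arrays limits the precision.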

Additional observations from a re-analysis of the deposited data

How the results depend on the processing

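The count of 3120 called features was 2072 without a filter on level, 5515 with array weights, 1573 with only the 6 arrays of both groups and 2 with a minimum change of 1.5-fold. The features called higher numbered 786, 2980, 467 and 1 under the same settings and 787 when the arrays were brought to 1 common median. Those called lower were 2535 with array weights, 1106 with the 6 arrays alone and 1 with the minimum change. Leaving out 1 array gave 1815 to 5165 called features, 628 to 1976 higher and 1158 to 3189 lower. On 1 common median 30.9% of calls were higher, after quantile normalisation 48.3%, after cyclic loess 40.4% and as deposited 46.4%. The cause of these shifts was not tested.

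The deviations from the group means of same-numbered non-induced and induced arrays correlated at 0.219, 0.035 and 0.398. Those of differently numbered arrays correlated at -0.335 to 0.057. The main fit treated the arrays as unpaired, and whether arrays with the same number share a batch was not tested. With the replicate number as a block 1574 features were called higher and 1768 lower.

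Of 169 called genes chosen by the naming rule 101 kept their call in each alternative run on them other than the minimum change and 68 lost it in at least 1, with 0 reversed. There were 21 such alternatives, or 20 for the 27 genes below the 75th percentile filter. Among the 30 largest changes 25 kept it in each one run. Fitting the 6 arrays alone lost 55 calls, leaving out non-induced array 3 lost 46 and leaving out induced array 2 lost 43. Where the groups do not overlap, leaving out 1 array could not have reversed a difference.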
